A study of Mus musculus with 12 samples.

Results

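Autophagy is the route by which a cell wraps part of its own cytoplasm in a double membrane, the autophagosome, and delivers it to the lysosome for breakdown. The 40 genes described here encode its core machinery together with the lysosomal membrane proteins Lamp1 and Lamp2 and the transcription factors Tfeb and Tfe3. They were taken by name from a fixed list, and each was read from the array probe set that maps to that gene alone, the brightest where a gene had several. Of the 40, 39 were analysed among 19938 genes measured in all, and Optn, which has no probe set of its own in the gene table, was left out.

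RNA from mouse cells was measured on 12 Affymetrix whole-transcript arrays, 3 for each of 4 groups, as log2 signals. The endothelial groups came from the lung of C57Bl/6 mice, WT_EC from wild-type animals and null_EC from animals lacking CD47, the thrombospondin-1 receptor, and both were grown in the endothelial medium EGM2. null_EB were embryoid bodies from the CD47 null endothelial cells, which per the labels were passaged for 6 months and then placed in endothelial basal medium without serum, where the bodies appeared after 24 to 36 h. ESC was the established mouse embryonic stem cell line V6.5, a single line, in DMEM with serum (15%) and the self-renewal factor LIF (1000 IU/ml). The null groups share the deletion, ESC shares neither strain label nor medium with the other groups, and serum, growth form and stated passage differ along with the cell type, so these cannot be told apart. The labels do not say whether the 3 arrays of a group came from separate animals or cultures, so the p-values measure only the spread between these samples, which may be technical.

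Cd47 itself read 12.59, 11.29 and 12.48 on the WT_EC arrays, 10.97 to 11.11 for null_EC, 10.89 to 10.99 for null_EB and 10.96 to 11.33 for ESC, so every null array lay below every WT_EC array, and the null groups overlapped ESC. Where the probes lie relative to the deletion was not examined, so a remaining signal checks nothing. Of 18 endothelial markers, 14 read below log2 8 on each null_EC array, 16 on each null_EB array, 9, 14 and 9 on the WT_EC arrays and 10 to 11 on the ESC arrays. Pecam1 ranged from 6.46 to 7.56 in WT_EC and from 6.57 to 6.61 in null_EC, whereas Kdr ranged from 8.51 to 9.35 and from 10.52 to 10.83. The mesothelial markers had medians of 10.53 to 11.68 in WT_EC and 11.37 to 11.49 in null_EC, and the fibroblast and smooth muscle markers 10.56 to 11.41 and 10.24 to 10.89. Medians of different marker sets are not ranked against each other. In null_EC most endothelial markers read low on every array, which goes against the endothelial label of that group. In WT_EC this held for WT_EC 2, whereas 9 of 18 read low on WT_EC 1 and WT_EC 3, beside 10 to 11 on the ESC arrays. Between ESC and WT_EC the median difference of the 18 markers was -0.06, with 3 called higher in ESC and 5 lower. As a set these markers therefore do not place WT_EC clearly apart from the stem cells. The stem cell factors Pou5f1 and Nanog read 11.94 to 12.60 in ESC and at most 7.12 in the other groups, null_EB included. The WT_EC arrays stood apart from one another. WT_EC 3 had a macrophage and leukocyte marker median of 9.46, against 7.42 and 6.47 on the other WT_EC arrays and 6.55 to 6.59 in null_EC, and WT_EC 1 had a hypoxia and glycolysis list median of 12.18, against 10.16 and 9.98. The median SD of the 39 genes was 0.249 over the WT_EC arrays, 0.0442 over null_EC, 0.0605 over null_EB and 0.0879 over ESC. Over all genes it was 0.213, 0.0652, 0.077 and 0.0847, so the wider scatter of WT_EC was not particular to the 39. Of the 39, 34 had their largest SD in WT_EC, a share that was not counted over all genes.

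Autophagy starts when the Ulk kinases, with Atg13, Atg101 and Rb1cc1, switch on a lipid kinase complex around Becn1 and Pik3c3 that marks the forming membrane. Atg2 and Atg9 proteins bring lipid to it, and ubiquitin-like conjugation enzymes (Atg3, Atg5, Atg7, Atg10, Atg12, Atg16l1) attach proteins of the Atg8 family (the LC3 and GABARAP proteins) to it, where they hold cargo receptors such as Sqstm1. Tfeb and Tfe3 raise transcription of lysosomal and autophagy genes through a short promoter sequence, the CLEAR element, which is built around CACGTG. The arrays measure mRNA, and neither autophagic flux nor protein was measured.

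Promoters are shown first for a lysosomal gene, a conjugation enzyme and a proton pump subunit, which were picked because they carry such sequences, and for a gene of the hypoxia response. Windows of 300 bases, from 250 before to 50 after the annotated start, were available for 33 of the 40 genes (RefSeq, GRCm38.p6). The 8-base palindrome TCACGTGA was found in 1 of the 33 genes (3.03%), Atg3, against 1.12% of the 27025 genes with windows, and its 10-base extension, with a further G before and C after it, in 0 of them (0.37% of all). The 7-base form TCACGTG, on either strand and overlapping with the 8-base form, was added after those counts were seen and was found in 4 of the 33 genes (12.1%, against 4.29% of all): Atg3, Atg7, Atg14 and Lamp1. The 8-base form was found in 3 of 13 genes of the vacuolar ATPase (23.1%), the pump that acidifies lysosomes, in 8 of 21 genes for lysosomal membrane proteins (38.1%), in 4 of 24 genes for autophagosome fusion (16.7%) and in 3 of 33 genes for lysosomal hydrolases (9.09%). It was found in 0 of 40 genes for amino acid sensing and 0 of 20 transcriptional regulators of autophagy. Of the 11 members with windows that were called lower in ESC than in all 3 other groups, 0 held the 8-base form and 2 the 7-base form. Of 4 Atg8 family genes with windows, 0 held either form. The stretches below are the 150 bases before the start, with TCACGTG on either strand in capitals. Lamp1 (chr8:13159011-13159160, plus strand) has 4 copies, Atg3 (chr16:45158679-45158828, plus strand) has 2, and Atp6v1a, the catalytic subunit of the pump (chr16:44139260-44139409, minus strand), has 1.
Lamp1: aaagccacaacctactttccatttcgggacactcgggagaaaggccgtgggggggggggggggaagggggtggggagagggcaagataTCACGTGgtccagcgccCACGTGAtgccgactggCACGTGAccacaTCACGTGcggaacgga
Atg3: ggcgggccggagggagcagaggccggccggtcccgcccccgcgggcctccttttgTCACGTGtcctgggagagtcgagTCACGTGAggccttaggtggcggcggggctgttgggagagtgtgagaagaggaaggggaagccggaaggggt
Atp6v1a: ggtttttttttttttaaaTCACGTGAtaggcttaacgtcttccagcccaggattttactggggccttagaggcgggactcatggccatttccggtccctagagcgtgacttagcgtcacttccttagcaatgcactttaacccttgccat
The mitophagy receptor Bnip3, known as a target of the hypoxia-inducible factors, has no TCACGTG in its window. Its 150 bases (chr7:138909507-138909656, minus strand) are shown with the hypoxia response cores ACGTG and GCGTG, on either strand, in capitals.
Bnip3: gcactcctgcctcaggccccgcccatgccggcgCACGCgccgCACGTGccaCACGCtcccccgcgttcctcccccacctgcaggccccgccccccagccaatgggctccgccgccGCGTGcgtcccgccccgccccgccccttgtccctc
The core ACGTG, which every CACGTG also holds, was found in 16 of the 33 genes (48.5%, against 21.8% of all) and GCGTG in 22 (66.7%, against 35.2%). The other pathway lists, the hypoxia list and a list of housekeeping genes also lay above the share of all genes for both cores. ACGTG was found in 54.2% of the fusion genes, 39.4% of the hydrolases and 31.6% of the housekeeping genes. For GCGTG these shares were 66.7%, 42.4% and 52.6%. A share above that of all genes was therefore not particular to the 33 genes. A match is a run of letters in a window and is no evidence of binding.

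Genes were compared with limma over all 12 arrays, with Benjamini-Hochberg adjustment over the 19938 genes, and a gene is said to be called, or to have risen or fallen, at an adjusted p below 0.05. Standard errors (SE) are those of the fit. In bulk RNA, fewer cells of a type and less RNA per cell cannot be told apart. Levels of different genes are not set against each other, because each probe set binds with its own strength.

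**Figure D1:**
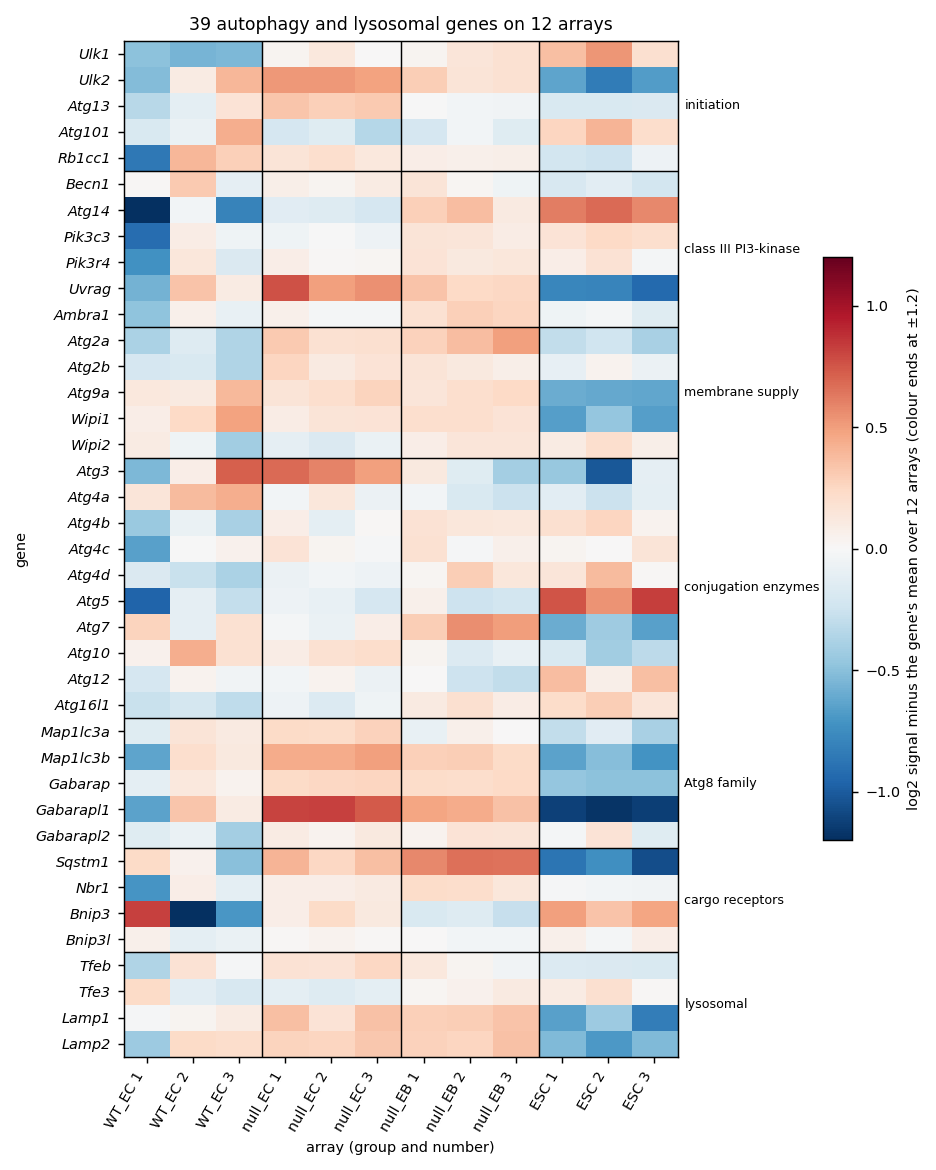
Log2 signal of the 39 genes (rows, grouped by role) on the 12 arrays (columns), each gene centred on its own mean over the arrays. The ESC columns are lowest for Gabarapl1, Uvrag, Sqstm1, Ulk2, Lamp1 and Lamp2 and highest for Atg5 and Atg14, and the WT_EC columns differ from one another more than those of any other group.

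The comparison of null_EC with WT_EC sets lung cells lacking CD47 beside wild-type ones, both labelled endothelial. Their cell type markers also differed: 4 of 9 mesothelial markers were higher in null_EC and 3 of 14 fibroblast and smooth muscle markers lower. The loss of CD47 and the make-up of the cells therefore cannot be told apart. Of the 39 genes, 6 were higher in null_EC and 0 were lower: Gabarapl1, Uvrag, Ulk1, Atg2a, Atg2b and Atg13. They act early in autophagosome formation, except Gabarapl1, an Atg8 family protein, and Uvrag, which also acts in endosome traffic. This is 15.4% of the genes, against a background of 13.1% of all genes called, of which 8.12% were higher and 5.00% lower. The median difference was 0.26 on the log2 scale over the 39 genes and 0.03 over all genes. Of the 39 differences 33 were above 0, beside 11443 of the 19938 over all genes.

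Ulk1, the kinase at the top of the pathway, read 10.33, 10.50 and 10.16 in ESC, 10.00, 10.12 and 10.15 in null_EB, 10.00, 10.10 and 9.98 in null_EC and 9.48, 9.41 and 9.43 in WT_EC. The WT_EC arrays were tight here and lay below every other array. Ulk1 was higher in null_EC than in WT_EC by 0.59 (SE 0.0886, 1.5-fold, limma adjusted p = 0.00155), and it was the only one of the 6 that stayed called (adjusted p = 0.0219) when only the 6 arrays of these groups were fitted, where 2.95% of all genes were called, 1.45% higher and 1.50% lower. With array weights set by group Ulk1 was not called (adjusted p = 0.0588), and Gabarapl1 was the 1 gene that was.

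Gabarapl1 read 11.30, 12.28 and 12.04 in WT_EC and 12.75, 12.76 and 12.68 in null_EC. The groups did not overlap, but WT_EC spanned a range wider than the gap. The difference was 0.86 (SE 0.191, adjusted p = 0.0134), and the adjusted p was 0.152 in the fit of 6 arrays and 0.0545 without null_EC 1. Uvrag, the Becn1 partner, read 9.47, 10.38 and 10.13 in WT_EC and 10.80, 10.53 and 10.58 in null_EC, higher by 0.65 (SE 0.185, adjusted p = 0.0423). Its call was lost with any null_EC array left out (adjusted p of 0.162 without null_EC 1, 0.0817 without null_EC 2 and 0.101 without null_EC 3) and with arrays scaled on housekeeping genes (0.0578).

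The lipid transfer proteins Atg2a and Atg2b were both higher in null_EC than in WT_EC. Atg2a read 9.20, 9.43 and 9.22 in WT_EC and 9.90, 9.76 and 9.77 in null_EC, and 9.86, 9.95 and 10.07 in null_EB and 9.29, 9.34 and 9.19 in ESC. Both CD47 null groups were therefore above both other groups on every array. The difference between null_EC and WT_EC was 0.53 (SE 0.0875, adjusted p = 0.00273), and that between ESC and WT_EC was -0.01 (adjusted p = 0.963). Atg2b read 10.11, 10.13 and 9.95 on the WT_EC arrays, 10.57, 10.42 and 10.47 in null_EC, 10.46, 10.43 and 10.38 in null_EB and 10.21, 10.35 and 10.24 in ESC, higher in null_EC than in WT_EC by 0.42 (SE 0.0757, adjusted p = 0.00416). Unlike Atg2a, Atg2b was also called higher in ESC than in WT_EC (0.21, adjusted p = 0.0435), but not under housekeeping (0.597) or median (0.143) scaling or in the fit of those 6 arrays (0.167); whether the genes differ in this was not tested. Atg13, a scaffold of the Ulk complex, read 10.44, 10.44 and 10.45 in ESC, 10.62, 10.59 and 10.58 in null_EB, 10.96, 10.91 and 10.94 in null_EC and 10.29, 10.51 and 10.79 in WT_EC. It was highest in null_EC, by 0.41 over WT_EC (SE 0.104, adjusted p = 0.0252), a call lost with any null_EC array left out (adjusted p of 0.0944, 0.0677 and 0.0822 without null_EC 1, 2 and 3) and under housekeeping scaling (0.081).

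None of the 10 conjugation enzymes, the 4 cargo receptors or the 4 lysosomal genes passed the test between null_EC and WT_EC. The count of 6 fell to 3 without null_EC 1, rose to 10 without WT_EC 1 (9 higher, 1 lower) and 14 without WT_EC 2, and was 8 without WT_EC 3. Over all genes the count of 2615 became 1335, 3454, 5435 and 3101 in the same runs. Under housekeeping scaling 4 were higher and 1 lower, Atg4a. WT_EC 1 is the array with the high hypoxia median and WT_EC 3 the array with the high macrophage median; their part in the differences was not tested.

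Of the other gene lists of the pathway, the vacuolar ATPase had the largest share of genes that were higher in null_EC. Of its 18 measured subunits, 14 were higher in null_EC and 0 lower, with a median difference of 0.60, and 6 were higher and 0 lower in the fit of 6 arrays. The largest differences were in Atp6v1g1 (0.86, adjusted p = 0.00378), Atp6v1f (0.83, 0.0166) and Atp6v1h (0.82, 0.00269), subunits of the cytoplasmic sector. Atp6v0d2 read 10.58 on WT_EC 3 and 4.87 to 5.31 on the other WT_EC and null_EC arrays, and WT_EC 3 is the array with the high macrophage marker median. Of 27 lysosomal membrane proteins, 9 were higher and 0 lower (median 0.37), led by the cystine exporter Ctns (1.18, adjusted p = 0.00385), the chloride carrier Clcn7 (0.98, 8.6e-05) and Cln3 (0.85, 0.00176). Of 38 lysosomal hydrolases, 10 were higher and 4 lower (median 0.25). Galactosylceramidase Galc (1.44), sialidase Neu1 (1.07) and alpha-galactosidase Gla (0.78) rose, and the cathepsins Ctsh (-2.50) and Ctsc (-0.96) and the sulfatase Arsb (-0.71) fell. Of 30 genes for autophagosome fusion and late endosomes, 8 were higher and 0 lower, with the fusion protein Vamp8 at 0.89, Rab24 at 0.52 and Vps11 at 0.46. The genes called higher in the ATPase, membrane, hydrolase and fusion lists numbered 9, 8, 3 and 2 without null_EC 1, 11, 9, 8 and 5 without null_EC 2, and 10, 8, 3 and 2 without null_EC 3. They numbered 14, 10, 8 and 9 without WT_EC 1, 14, 13, 15 and 11 without WT_EC 2, and 15, 15, 16 and 8 without WT_EC 3, and 6, 3, 1 and 0 in the fit of 6 arrays. The hydrolases called lower numbered 9 without WT_EC 1.

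Amino acid sensing by mTORC1, the kinase complex that holds Ulk1 in check, takes place at the lysosome through Rag GTPases. Of 44 genes of that list, 9 were higher and 3 lower in null_EC. That is 27.3% called, against 13.1% of all genes (8.12% higher, 5.00% lower). Flcn and Fnip2, partners in the complex that acts on the Rag GTPases, rose by 0.82 (adjusted p = 0.0201) and 0.77 (0.00167), and the Rag GTPase Rragc rose by 0.78 (0.00616), whereas Rragd (-0.56), Sesn3 (-1.0) and Ddit4l (-0.74) fell. The 9 became 3 without null_EC 1, 4 without null_EC 2 or null_EC 3, 17 without WT_EC 2 and 1 in the fit of 6 arrays. Over all genes, the 1619 called higher became 756 without null_EC 1, and 983 and 855 without null_EC 2 and null_EC 3. They became 3422 without WT_EC 2 and 289 in the fit of 6 arrays. Of the transcriptional regulators 4 of 24 rose and 1 fell, with the stress factor Ddit3 at 1.66 (adjusted p = 0.00106), Zkscan3 at 0.76 and Srebf2 at 0.58, and the nuclear receptor Nr1h4 at -1.05. Of 21 other cargo receptors and mitophagy genes, 5 rose, among them Retreg1 (0.76), a receptor for endoplasmic reticulum, Stbd1 (0.46) and Tollip (0.39), and 1 fell, Trim13 (-0.52). Of the 23 hypoxia and glycolysis genes 1 rose, Kdm3a (0.47), and 1 fell, Adm (-3.34). The shares called were 20.8% of the regulators, 28.6% of the other cargo receptors and 8.7% of the hypoxia list, the last below the share of all genes.

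**Figure D2:**
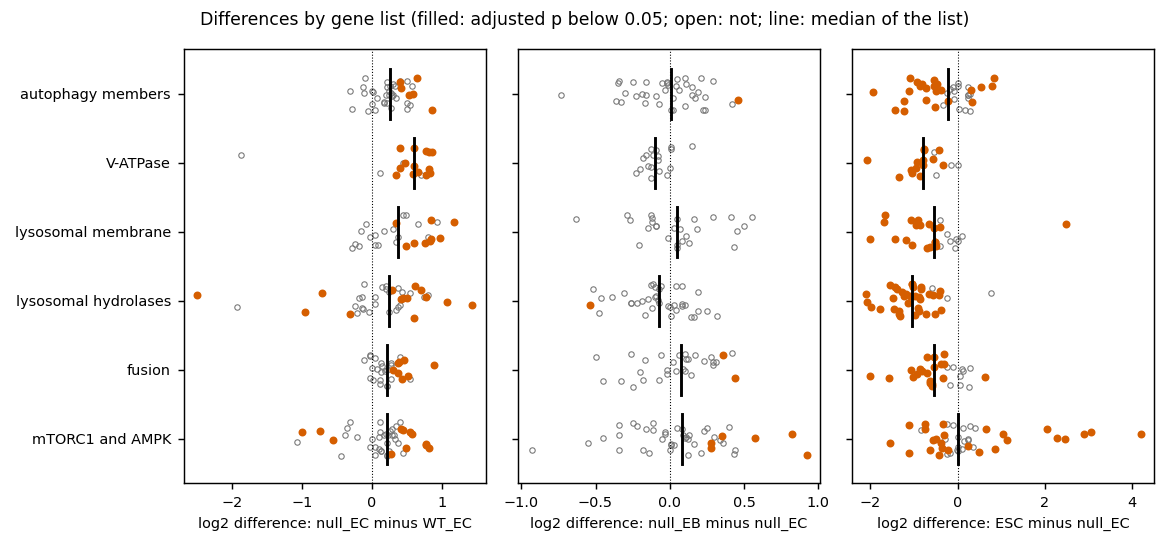
Log2 differences (x axis) of the 39 autophagy genes and of 5 other gene lists (rows) in 3 comparisons; each point is 1 gene, filled where the adjusted p was below 0.05, and the line is the median of the list. In null_EC against WT_EC the vacuolar ATPase median is 0.60 and that of the autophagy genes 0.26, and in ESC against null_EC the hydrolases lie lowest.

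The comparison of null_EB with null_EC sets cells aggregated without serum beside the attached cells in full medium. Atg7, the activating enzyme of both conjugation systems, was the only gene of the 39 that was called, and 0 were lower. That is 2.56% of the genes, against a background of 5.40% of all genes, 2.90% higher and 2.50% lower. Atg7 read 9.43, 9.37 and 9.53 in null_EC, 9.74, 10.01 and 9.95 in null_EB, 9.72, 9.34 and 9.63 in WT_EC and 8.85, 9.02 and 8.80 in ESC. Every null_EB array lay above every null_EC array, by 0.46 in the mean (SE 0.113, 1.37-fold, limma adjusted p = 0.0418). The call was lost with any array of these groups left out except null_EB 1 (adjusted p between 0.0952 and 0.183).

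The spread that this fit shares over groups comes largely from WT_EC, which has no part in the comparison. Fitted on the 6 null_EC and null_EB arrays alone, 8 genes were higher and 9 lower in null_EB, against a background of 27.4% of all genes called, 15.0% higher and 12.4% lower. The higher ones were Atg7 (0.46, adjusted p = 0.00166), Atg14 (0.42), Sqstm1 (0.29), Ambra1 (0.24), Wipi2 (0.24), Atg16l1 (0.22), Tfe3 (0.19) and Pik3c3 (0.17), and the lower ones were Atg3 (-0.73, adjusted p = 0.000888), Gabarapl1 (-0.36), Bnip3 (-0.35), Atg13 (-0.34), Uvrag (-0.33), Ulk2 (-0.30), Map1lc3a (-0.25), Atg10 (-0.23) and Map1lc3b (-0.19). All these differences were under 2-fold. By role, 3 of the 6 genes of the lipid kinase complex (Atg14, Ambra1, Pik3c3) were higher and Uvrag lower, whereas 3 of the 5 Atg8 family genes were lower. Scaling on housekeeping genes moves every difference in this comparison up by 0.15, and the smallest of these values in size is 0.17.

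Of the other lists, the mTORC1 list had 6 of 44 genes higher and 0 lower in null_EB in the fit of 12 arrays, with a list median of 0.09. That is 13.6% called, against 5.40% of all genes. With any array left out 1 or 2 were higher, and of all genes 188 to 311 were, against 578 with every array kept. In the fit of 6 arrays 16 were higher and 9 lower, where 15.0% and 12.4% of all genes were. Ddit4l (0.92, adjusted p = 0.0274) and Sesn2 (0.82, 0.0475), stress-induced inhibitors of mTORC1, and Tsc2 (0.57, 0.0015), which turns off its activator Rheb, were the largest. The others were Wdr59 (0.35), Rptor (0.28) and Rraga (0.28). In the fit of 12 arrays no vacuolar ATPase or lysosomal membrane gene was called in either direction, and among hydrolases Ctsc alone fell (-0.54). The list medians were -0.1, 0.05 and -0.08, beside -0.01 for all genes. Because the spread of that fit comes largely from WT_EC, the lack of calls does not show that these lists were level. Among fusion genes Tecpr1 (0.44) and Vps18 (0.36) rose, among other cargo receptors Trim13 rose (0.74) and Tex264 fell (-0.26), and Bcl2l1, an inhibitor of cell death that binds Becn1, rose by 0.72 (adjusted p = 0.00888). Kdm3a was the only called gene of the hypoxia list (0.44).

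ESC differed from each of the other groups in a large share of all genes. Against null_EC, 5 of the 39 were higher and 18 lower, on a background of 47.9% of all genes called, 22.9% higher and 25.1% lower. Against null_EB, 3 were higher and 14 lower, on a background of 44.8% (21.8% higher, 23.0% lower). Against WT_EC, 8 were higher and 14 lower, on a background of 47.1% (25.4% higher, 21.7% lower). The median difference of the 39 genes was -0.22, -0.21 and -0.01, beside -0.09, -0.08 and -0.07 for all genes. The comparisons share the ESC arrays and are not independent. In ESC 12 genes were called lower than in all 3 other groups: Gabarapl1, Sqstm1, Uvrag, Ulk2, Lamp1, Lamp2, Map1lc3a, Map1lc3b, Gabarap, Atg7, Atg9a and Wipi1. Atg5 alone was called higher than in all 3. The share of all genes that met these joint rules was not counted, so the joint counts have no background beside them.

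In the initiation complex the paralogous kinases went opposite ways. Ulk2 read 9.57, 10.19 and 10.49 in WT_EC and 10.61, 10.61 and 10.57 in null_EC, and 10.38, 10.24 and 10.27 in null_EB and 9.46, 9.25 and 9.42 in ESC. ESC lay below every other array, with a log2 difference of -1.22 against null_EC (SE 0.18, limma adjusted p = 0.000186), -0.92 against null_EB (adjusted p = 0.00146) and -0.71 against WT_EC (0.00735, and 0.0634 in the fit of those 6 arrays). Ulk1 had its highest values in ESC, 0.30 above null_EC (adjusted p = 0.0168) and 0.88 above WT_EC (1.1e-05), and 0.24 above null_EB, where the test was not passed (0.0509). The difference from null_EC was not called once arrays were scaled on housekeeping genes (0.19, adjusted p = 0.13) or on their medians (0.21, 0.0673). Atg101, which steadies Atg13, read 8.38, 8.48 and 8.99 on the WT_EC arrays, 8.36, 8.41 and 8.22 in null_EC, 8.36, 8.53 and 8.41 in null_EB and 8.82, 8.97 and 8.77 in ESC. It was higher in ESC than in null_EC (0.53, adjusted p = 0.00979) and null_EB (0.42, 0.0324), the latter not called under housekeeping (0.353) or median (0.0628) scaling or without single arrays. Rb1cc1 was called in no comparison of the 12-array fit, with group means between 9.39 in ESC and 9.73 in null_EC.

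In the lipid kinase complex Uvrag was called lower in ESC than in all 3 other groups. It read 10.38, 10.27 and 10.28 in null_EB and 9.25, 9.24 and 9.10 in ESC, beside the WT_EC and null_EC values above, and all ESC arrays lay below all 9 others. The log2 difference was -1.44 against null_EC (SE 0.185, 2.72-fold, adjusted p = 6.4e-05), -1.11 against null_EB and -0.80 against WT_EC. Atg14, the subunit that directs the kinase to autophagosome formation where Uvrag directs it to endosomes, was at its highest in ESC, between 9.23 and 9.33, and differed from null_EC by 0.79 (SE 0.239, adjusted p = 0.0188; 0.0545 without null_EC 3 and 0.0557 without ESC 2) and from WT_EC by 1.33 (adjusted p = 0.000809), but not past the test from null_EB (0.37, adjusted p = 0.236). Becn1, Pik3c3 and Pik3r4, the shared core, were called in no comparison of the 12-array fit, and their group means spanned 9.39 to 9.64, 8.79 to 9.29 and 9.22 to 9.61. All ESC arrays lay below the 9 others for Becn1, and it was called lower in ESC than in null_EC, null_EB and WT_EC under housekeeping scaling (-0.35, -0.47 and -0.41; adjusted p of 0.00821, 0.00126 and 0.00348) and under median scaling (0.0209, 0.0308 and 0.0392). Ambra1 was lower in ESC than in null_EB (-0.32, adjusted p = 0.0467), a call that leaving out any array of these groups removed (0.0679 to 0.133).

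Among membrane genes the vesicle scramblase Atg9a and the lipid-binding Wipi1 were lower in ESC. Atg9a lay between 8.53 and 8.56 in ESC and between 9.26 and 9.54 on the other 9 arrays, with log2 differences of -0.82, -0.81 and -0.82 against null_EC, null_EB and WT_EC (adjusted p of at most 1.1e-05). Wipi1 lay between 8.58 and 8.77 in ESC and between 9.32 and 9.72 elsewhere. Its paralogue Wipi2 was called in no comparison of the 12-array fit. Atg2a was lower in ESC than in null_EC (-0.53) and null_EB (-0.68, adjusted p = 6.8e-05).

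The conjugation enzymes divided. Atg5, which with Atg12 and Atg16l1 forms the complex that places Atg8 proteins on the membrane, read 9.80, 9.58 and 9.87 in ESC, 9.10, 8.79 and 8.82 in null_EB, 8.98, 8.95 and 8.84 in null_EC and 8.08, 8.93 and 8.76 in WT_EC. All 3 ESC arrays lay above all others, by 0.83 over null_EC (SE 0.187, 1.77-fold, adjusted p = 0.00352), 0.85 over null_EB (0.00318) and 1.16 over WT_EC (0.000381). Atg12 read 9.49, 9.73 and 9.65 in WT_EC and 9.66, 9.73 and 9.62 in null_EC, and 9.69, 9.44 and 9.39 in null_EB and 10.06, 9.76 and 10.05 in ESC. Its difference from null_EB was 0.45 (adjusted p = 0.00622; under housekeeping scaling the difference was 0.19 and the adjusted p 0.146), from WT_EC 0.33 (0.0269; 0.193 under housekeeping scaling, 0.0927 in the fit of those 6 arrays, and 0.0723, 0.0965 and 0.0952 without WT_EC 1, ESC 1 and ESC 3) and from null_EC 0.28, which missed the test (0.0514). Atg16l1 was higher in ESC than in null_EC by 0.32 (adjusted p = 0.00258) and than in WT_EC by 0.49 (0.000137), but by 0.10 than in null_EB (0.277).

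The activating enzyme Atg7 went the other way, with ESC below all 9 other arrays and log2 differences of -0.55, -1.01 and -0.68 against null_EC, null_EB and WT_EC (adjusted p of 0.00179, 2.4e-05 and 0.000494). Atg3, which hands over Atg8 proteins, was more scattered: it ranged from 9.66 to 10.92 in WT_EC, 10.69 to 10.88 in null_EC, 9.79 to 10.32 in null_EB and 9.18 to 10.09 in ESC, and in the 12-array fit was called only between ESC and null_EC (-1.12, SE 0.297, adjusted p = 0.00935). Under housekeeping scaling it was also called lower in ESC than in WT_EC (-0.78, adjusted p = 0.0411), beside its call between the null groups in their fit of 6 arrays. Atg10, which hands over Atg12, was lower in ESC than in null_EC (-0.46, adjusted p = 0.0036) and WT_EC (-0.53, 0.00166), and was called lower than in null_EB under housekeeping (-0.49, 0.00299) and median (-0.33, 0.0212) scaling. Of the Atg4 proteases, which process Atg8 proteins, Atg4b (0.47) and Atg4d (0.46) were higher and Atg4a (-0.49) lower in ESC than in WT_EC, Atg4c was called in no comparison of the 12-array fit, and in that fit none of the 4 was called between ESC and either null group. Under housekeeping scaling Atg4a was called lower in ESC than in null_EC (-0.29, adjusted p = 0.0399) and null_EB (-0.26, 0.0433).

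By calls the Atg8 family was the role with the most uniform difference: 4 of its 5 genes were called lower in ESC than in each of the 3 other groups. Of all genes, 25.1% were lower than in null_EC, 23.0% than in null_EB and 21.7% than in WT_EC. Only 2 of the 5 lay below WT_EC on every array. In the fit of the ESC and WT_EC arrays alone the calls of Map1lc3a and Map1lc3b were lost (adjusted p of 0.106 and 0.142). Gabarapl1 fell most. It read 12.42, 12.39 and 12.29 in null_EB and 10.82, 10.77 and 10.81 in ESC, so that the ESC arrays lay within 0.05 of each other and below every other array. The log2 difference was -1.93 against null_EC (SE 0.191, 3.8-fold, adjusted p = 8.4e-06), -1.57 against null_EB (4.8e-05) and -1.07 against WT_EC (0.000788).

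Map1lc3b, which encodes LC3B, the protein most used as a marker of autophagosomes, read 10.77, 11.61 and 11.52 on the WT_EC arrays, 11.85, 11.85 and 11.90 in null_EC, 11.69, 11.70 and 11.64 in null_EB and 10.76, 10.90 and 10.69 in ESC. ESC overlapped WT_EC through WT_EC 1 alone. The differences were -1.08 against null_EC (SE 0.175, adjusted p = 0.000367), -0.89 against null_EB (0.00156) and -0.52 against WT_EC (0.032, and 0.142 in the fit of those 6 arrays). Its second probe set gave -1.05 and -0.86 against the null groups. Map1lc3a read 8.71, 8.87 and 8.62 in ESC, 8.92, 9.07 and 9.01 in null_EB, 9.24, 9.23 and 9.28 in null_EC and 8.86, 9.16 and 9.12 in WT_EC. It was lower in ESC than in null_EC (-0.52, adjusted p = 0.000859), and its calls against null_EB (-0.27, 0.0382) and WT_EC (-0.31, 0.0188) were lost without some single arrays (up to 0.139 and 0.0768).

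Gabarap read 12.84, 13.08 and 13.00 in WT_EC and 13.18, 13.20 and 13.21 in null_EC, and 13.17, 13.16 and 13.19 in null_EB and 12.49, 12.46 and 12.46 in ESC. The null groups were level with each other, and ESC was lower by -0.73, -0.70 and -0.50 than null_EC, null_EB and WT_EC (adjusted p of 6.4e-06, 9.4e-06 and 0.000122). Gabarapl2 read 12.06, 12.12 and 11.80 on the WT_EC arrays, 12.30, 12.25 and 12.32 in null_EC, 12.25, 12.37 and 12.36 in null_EB and 12.18, 12.37 and 12.06 in ESC, and its brighter probe set was called in no comparison of the 12-array fit, and under housekeeping scaling in ESC against null_EB (-0.38, adjusted p = 0.00781). Its dimmer probe set gave -0.62 (adjusted p = 0.0345) against null_EC and -0.70 (0.0214) against null_EB, so the probe sets disagree on whether this gene was lower in ESC.

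**Figure D3:**
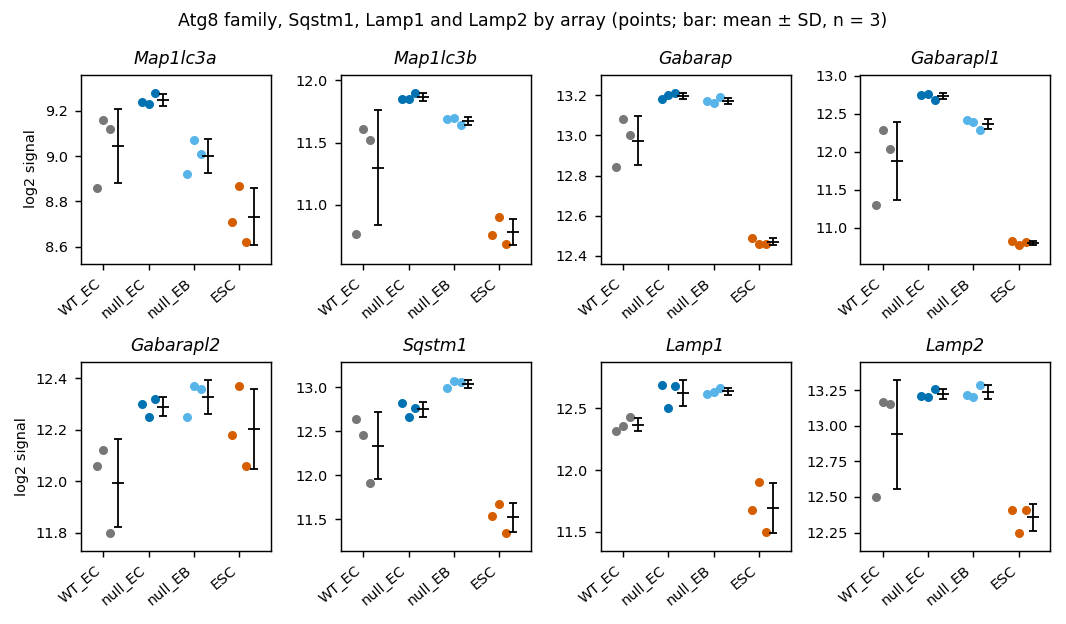
Log2 signal (y axis, scaled per gene) of the 5 Atg8 family genes, Sqstm1, Lamp1 and Lamp2 on each array (points) by group, with the mean and SD of 3 arrays (bars). Gabarapl1 lies between 10.77 and 10.82 in ESC and between 11.30 and 12.76 elsewhere, Sqstm1 is highest in null_EB, and Gabarapl2 overlaps between ESC and every other group.

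Of the cargo receptors, Sqstm1 differed and the mitophagy receptors did not pass the test in the 12-array fit. Sqstm1, or p62, binds ubiquitin-tagged cargo and is itself broken down with it. It read 11.54, 11.68 and 11.35 in ESC, 12.99, 13.07 and 13.06 in null_EB, 12.82, 12.66 and 12.77 in null_EC and 12.64, 12.46 and 11.91 in WT_EC. The null_EB arrays were the highest of the 12 and the ESC arrays the lowest. The difference between ESC and null_EB was -1.52 (SE 0.159, 2.86-fold, adjusted p = 1.5e-05), against null_EC it was -1.22 (7.1e-05) and against WT_EC -0.81 (0.00147). Nbr1, a related receptor, was called in no comparison of the 12-array fit (under housekeeping scaling -0.47 in ESC against null_EB, adjusted p = 0.0208), with ESC between 11.07 and 11.10.

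Bnip3 read 12.45, 10.39 and 10.93 in WT_EC and 11.71, 11.86 and 11.74 in null_EC, and 11.44, 11.47 and 11.35 in null_EB and 12.12, 11.97 and 12.10 in ESC. The WT_EC arrays held both the highest and the lowest value of the 12, with an SE of 0.382, the largest among the 39 genes, and no comparison of the 12-array fit called it (difference between null_EC and WT_EC 0.51, adjusted p = 0.452). The hypoxia and glycolysis list had its highest median, 12.18, on the array where Bnip3 was highest, WT_EC 1, and lay between 9.98 and 10.88 on the other 11 arrays; the part of this in the Bnip3 values was not tested. Bnip3l read 12.66, 12.48 and 12.52 on the WT_EC arrays, 12.61, 12.64 and 12.61 in null_EC, 12.60, 12.56 and 12.56 in null_EB and 12.66, 12.57 and 12.68 in ESC, a total span of 0.20, and was called in no comparison.

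**Figure D4:**
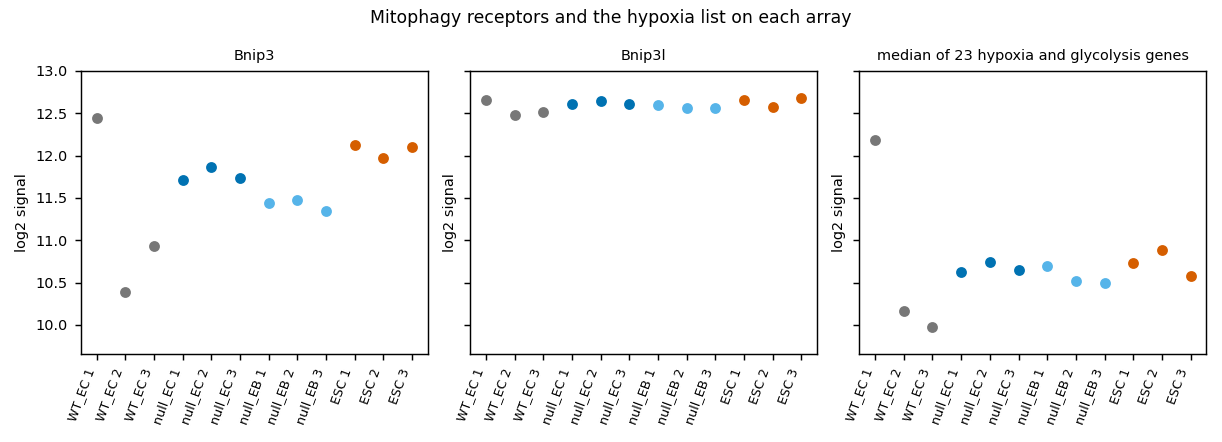
Log2 signal (y axis, shared) of Bnip3, of Bnip3l and of the median of 23 hypoxia and glycolysis genes on each of the 12 arrays (x axis). WT_EC 1 is the highest array for Bnip3 (12.45) and for the list (12.18), and Bnip3l stays between 12.48 and 12.68.

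Tfeb read 8.42, 8.41 and 8.40 in ESC, 8.71, 8.62 and 8.54 in null_EB, 8.76, 8.75 and 8.83 in null_EC and 8.22, 8.76 and 8.57 in WT_EC. The one call of the 12-array fit was between ESC and null_EC (-0.37, SE 0.115, adjusted p = 0.0214), and it was lost without null_EC 3 or any ESC array (0.052 to 0.0685). Tfeb was also called lower in ESC than in null_EB under housekeeping (-0.46, adjusted p = 0.00499) and median (-0.31, 0.0418) scaling. Tfe3 read 9.83, 9.47 and 9.41 in WT_EC and 9.48, 9.44 and 9.48 in null_EC, and 9.62, 9.65 and 9.71 in null_EB and 9.70, 9.79 and 9.61 in ESC, and was called in no comparison of the 12-array fit.

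The lysosomal membrane proteins that these factors are known to control were lower in ESC. Lamp1 read 12.32, 12.36 and 12.43 on the WT_EC arrays, 12.69, 12.50 and 12.68 in null_EC, 12.62, 12.63 and 12.67 in null_EB and 11.68, 11.90 and 11.50 in ESC. Its differences were -0.93, -0.95 and -0.68 against null_EC, null_EB and WT_EC (SE 0.0987; adjusted p of 1.5e-05, 1.4e-05 and 0.000188). Lamp2, needed for autophagosome fusion and chaperone-mediated autophagy, read 12.41, 12.25 and 12.41 in ESC, 13.22, 13.20 and 13.29 in null_EB, 13.21, 13.20 and 13.26 in null_EC and 12.50, 13.17 and 13.15 in WT_EC. ESC was below all 9 other arrays, closest to WT_EC 1, with differences of -0.87, -0.88 and -0.59 (adjusted p of 0.000582, 0.000575 and 0.00784; the last 0.0671 in the fit of those 6 arrays).

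Larger shares of the other lysosomal lists than of the 39 autophagy genes were lower in ESC than in null_EC, where 25.1% of all genes were lower. Of 38 hydrolases, 35 were lower than in null_EC, 34 than in null_EB and 30 than in WT_EC, and 0 were higher in any of these. Alpha-glucosidase Gaa read 9.75 to 9.98 in ESC and 11.21 to 12.17 elsewhere, a difference of -2.08 from null_EC (adjusted p = 4.3e-07), and Ctso (-2.10) and Naglu (-1.97) differed by a like amount. Of 27 membrane proteins, 18 were lower than in null_EC and 1 higher. Clcn7 (-2.00, adjusted p = 2.2e-08), the tetraspanin Cd63 (-1.69) and Ctns (-1.65) fell, and the calcium channel Mcoln3 rose (2.49). Of 18 vacuolar ATPase subunits, 14 were lower than in null_EC, 13 than in null_EB and 6 than in WT_EC, led by Atp6v0a1 (-2.07, adjusted p = 1.7e-07) and Atp6ap1 (-1.33), and Atp6v1a, whose promoter is shown above, differed by -0.77 (0.000122). Of 30 fusion genes, 20 were lower than in null_EC and 1 higher (Ei24, 0.62), with Rab7b at -2.00, Vamp8 at -1.56 and Epg5 at -1.07.

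The mTORC1 and AMPK list was split, with 12 of 44 genes higher and 14 lower in ESC than in null_EC. That is 59.1% called, against 47.9% of all genes, which were split as well (22.9% higher, 25.1% lower). The Rag GTPases differed in opposite directions: Rragd read 10.53 to 10.95 in ESC and 6.33 to 6.82 in null_EC (4.19, adjusted p = 6.9e-09), Rragb 10.16 to 10.34 against 7.14 to 7.28 (3.05, 1.8e-07), and Rragc 9.93 to 10.04 against 11.40 to 11.67 (-1.55, 6.7e-06). The AMPK catalytic subunit Prkaa2 was higher in ESC by 2.90 (adjusted p = 3e-05), and Flcn (-1.12) and Prkab2 (-1.11) were lower. Of 21 other cargo receptors, 2 rose, Trim13 (3.23) and Nufip1 (1.27), and 13 fell, led by the glycogen-binding Stbd1 (-1.80), the endoplasmic reticulum receptor Tex264 (-1.08) and Calcoco1 (-0.92). Of 24 transcriptional regulators, 4 rose and 12 fell, with Ddit3 (-2.74), Cebpb (-1.49) and Zkscan3 (-1.30) lowest and Foxo1 (0.91), E2f1 (0.89) and Hmgb1 (0.77) highest. Hypoxia and glycolysis genes moved both ways, 3 up (Adm 1.31, Pdk1 0.86, Kdm3a 0.52) and 7 down (among them Ndrg1 -2.19, Vegfa -1.65 and Car9 -1.28). The shares called were 71.4% of the other cargo receptors, 66.7% of the regulators and 43.5% of the hypoxia list, the last below the share of all genes.

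Against WT_EC some genes of these lists were higher in ESC: 1 vacuolar ATPase subunit (Atp6v1c1, 0.34) and 4 of the 27 lysosomal membrane genes, among them Mcoln3 (2.30), Npc1 (0.50) and Igf2r (0.46). Scaling on housekeeping genes moves every ESC difference down, by -0.11 against null_EC, -0.25 against null_EB and -0.16 against WT_EC, and scaling on array medians by -0.09, -0.10 and -0.05. The housekeeping list was itself not level: 57.1%, 66.7% and 57.1% of its 21 genes were called in these comparisons, with differences from -1.13 to 3.07. Under the housekeeping scaling 1 gene of the 39 was higher and 22 lower in ESC than in null_EB.

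Over all comparisons of the 12-array fit, 28 of the 39 genes were called at least once and 11 never: Rb1cc1, Becn1, Pik3c3, Pik3r4, Wipi2, Atg4c, Gabarapl2, Nbr1, Bnip3, Bnip3l and Tfe3. Gabarapl2 is counted by its brighter probe set, whereas its dimmer one was called lower in ESC than in null_EC and null_EB. By group mean, ESC was lowest for 20 genes and highest for 12, null_EC highest for 13, null_EB for 11 and WT_EC for 3, and WT_EC was lowest for 16. None of these counts was made over all genes, of which each ESC comparison alone called between 44.8% and 47.9%. They are therefore not a result about the 39. No gene had all its group means below 8.01, the median of all values on the arrays.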

How the data were processed

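Each deposited value is the log2 signal of a probe set, which per the submitters' processing notes the authors made with Affymetrix Expression Console 1.2.1 and RMA (background correction, quantile normalization, median polish); they were used as deposited. The probe sets are those of a mouse platform, whose gene table was used, although the labelling protocol speaks of a human array. Of 35556 probe sets, 21789 had 1 gene, 1621 several and 12146 none; the brightest of each gene's probe sets gave 19938 genes. No detection calls were used, and 3 arrays per group limit the precision.

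Group means were fitted to all 12 arrays with limma 3.58.1 (R 4.3.3), tested on simulated data first. The members and the gene lists were chosen with earlier results of these data known. Values on every array are given for members called in null_EC against WT_EC or null_EB against null_EC, the 6 largest called changes each way in ESC against null_EB, the Atg8 family, Sqstm1, Bnip3, Bnip3l, Tfeb, Tfe3, Lamp1 and Lamp2; of other lists, up to 3 called genes each way per comparison. Genes outside this rule (further mTORC1 genes in null_EB, Atp6v0d2, Atp6v1a and the markers) were named after their values were seen. Other settings were the removal of dim genes (those with fewer than 3 arrays at log2 6 or above), each probe set separately, housekeeping or median scaling, the 6 arrays of a comparison, array weights, a trended robust eBayes, a replicate block and leaving out each array; fits without WT_EC and with group weights were chosen after seeing the data.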

Additional observations from a re-analysis of the deposited data

How the results depend on the processing

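No called gene of the 39 changed sign under any alternative run. Of the calls named, 21 of 85 alternatives lost the threshold in null_EC against WT_EC, 7 of 15 in null_EB against null_EC, 17 of 347 in ESC against null_EC, 21 of 256 in ESC against null_EB and 32 of 311 in ESC against WT_EC. In null_EC against WT_EC the count of 6 members became 1 in the fit of its 6 arrays (Ulk1), 1 with group array weights (Gabarapl1) and 3 to 14 with an array left out, and that of 2615 genes became 588, 1531 and 1335 to 5435; under housekeeping scaling 4 members were higher and 1 lower, and all genes split into 1098 higher and 1074 lower (1619 and 996 unscaled). In null_EB against null_EC the count of 1 member became 2 with housekeeping scaling, 17 with 6 arrays, 24 with array weights, 0 with the trended robust eBayes, 17 without the WT_EC arrays, 15 with group weights and 0 to 1 with an array left out; that of 1077 genes became 2039 (1719 higher, 320 lower) with housekeeping scaling, 5464 with 6 arrays, 8001 with array weights, 5058 without WT_EC, 5364 with group weights and 390 to 676 with an array left out. In ESC against null_EB 17 members became 26 with 6 arrays, without WT_EC or with group weights and 29 with array weights (14 to 15 with an array left out), and 8929 genes became 13666 (3054 higher, 10612 lower) with housekeeping scaling and 14866 with array weights, and split into 3765 and 6913 under median scaling (4338 and 4591 unscaled). In ESC against null_EC the 23 members stayed between 19 and 33, and the split of all genes, 4556 higher and 5004 lower, became 3864 and 6694 under housekeeping and 4000 and 7268 under median scaling. In ESC against WT_EC 22 members stayed between 16 and 28, and 9394 genes became 6250 with 6 arrays and split into 4007 and 7961 under housekeeping scaling (5065 and 4329 unscaled). Deviations from the group means had correlations of -0.155 to 0.225 between same-numbered arrays and of -0.262 to 0.221 between differently numbered ones. This cannot decide whether the numbers pair the samples, since weak correlations do not exclude a shared preparation. With the replicate block the members called were 5, 0, 23, 16 and 21 and the genes 2239, 764, 9149, 8537 and 8954 in the 5 comparisons, in the order null_EC against WT_EC, null_EB against null_EC, ESC against null_EC, ESC against null_EB and ESC against WT_EC. The cause of these changes was not tested.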
